A study of Homo sapiens with 2 samples.

Results

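Small nucleolar RNAs and their Cajal-body relatives were followed by RNA-seq in RKO, a cell line from a human colorectal carcinoma, as gene symbols that begin with SNORD, SNORA or SCARNA. A symbol was kept when its reads summed to 10 or more over both libraries. Of 463 such symbols in the count table, 139 met that minimum: 81 SNORD, 50 SNORA and 8 SCARNA genes. The whole table held 54261 features, and 14719 of them met the same minimum. The series has 2 libraries: siNC, from RKO cells given a control siRNA (genotype labelled WT), and siHNRNPM, from RKO cells given an siRNA against HNRNPM (genotype labelled HNRNPM knockdown). HNRNPM is an RNA-binding protein of the nuclear hnRNP family. Both groups were grown in DMEM with fetal bovine serum. Each group was 1 library, so no difference below has a replicate check and no p-value is given. The 95% intervals cover counting error only. The genes were chosen by their total reads, so their summed levels are a description, while the ratio between the libraries did not enter the choice.

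C/D box snoRNAs (SNORD) are short nucleolar RNAs that guide 2′-O-methylation of ribosomal RNA, and H/ACA box snoRNAs (SNORA) guide the conversion of uridine to pseudouridine. Small Cajal-body RNAs (SCARNA) guide the same modifications on spliceosomal snRNAs. In human cells most of these RNAs are cut out of introns of a host gene after splicing, and many hosts encode ribosomal proteins, translation factors or non-coding RNAs known mainly as snoRNA hosts. A few, such as U3, U14, U17 and U22, act in the cleavage of the ribosomal RNA precursor.

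The sequences of 11 genes that the results below turn on are shown 5′ to 3′ as DNA letters, from GENCODE 29 transcripts on GRCh38. In the SNORD genes capitals mark the C box, searched as TGATGA within the first 25 bases, and the D box, searched as CTGA within the last 15 bases. SNORD5, SNORD25, SNORD62B and SNORD17 were among the most read SNORD genes, SNORD95 and SNORD96A share the host RACK1, and SNORD27 had one of the largest ratios.
SNORD5: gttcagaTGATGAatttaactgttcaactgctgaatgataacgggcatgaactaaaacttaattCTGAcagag
SNORD25: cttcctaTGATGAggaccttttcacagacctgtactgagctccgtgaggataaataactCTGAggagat
SNORD62B: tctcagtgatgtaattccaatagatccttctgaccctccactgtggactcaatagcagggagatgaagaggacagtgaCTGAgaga
SNORD17: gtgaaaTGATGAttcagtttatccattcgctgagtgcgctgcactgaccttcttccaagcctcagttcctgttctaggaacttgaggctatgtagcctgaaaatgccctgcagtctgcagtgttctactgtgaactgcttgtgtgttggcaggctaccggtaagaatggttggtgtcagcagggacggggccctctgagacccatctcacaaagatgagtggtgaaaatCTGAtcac
SNORD95: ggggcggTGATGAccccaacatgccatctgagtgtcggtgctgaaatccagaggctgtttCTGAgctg
SNORD96A: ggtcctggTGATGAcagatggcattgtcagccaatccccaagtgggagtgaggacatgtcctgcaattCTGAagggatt
SNORD27: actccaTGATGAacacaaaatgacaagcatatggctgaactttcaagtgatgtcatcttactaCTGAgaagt
SNORD5 lies at chr11:93733228-93733300 on the minus strand, SNORD25 at chr11:62855564-62855632 (minus), SNORD62B at chr9:131490486-131490571 (plus) and SNORD17 at chr20:17962710-17962946 (minus). SNORD95 lies at chr5:181243312-181243379, SNORD96A at chr5:181241814-181241892 and SNORD27 at chr11:62855012-62855083, all on the minus strand. SNORD62B has no TGATGA in its first bases, so only its D box is in capitals.

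In the SNORA genes capitals mark the H box, searched as ANANNA between 40% and 65% of the length, and the ACA that stands 3 bases from the annotated 3′ end. SNORA8 was the most read H/ACA gene with both boxes. SNORA62 had a ratio of siHNRNPM over siNC above 2-fold, and SNORA69 and SNORA13 had ratios at least that far below.
SNORA8: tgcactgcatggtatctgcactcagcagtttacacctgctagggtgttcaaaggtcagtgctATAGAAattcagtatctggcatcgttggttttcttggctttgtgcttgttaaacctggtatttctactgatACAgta
SNORA62: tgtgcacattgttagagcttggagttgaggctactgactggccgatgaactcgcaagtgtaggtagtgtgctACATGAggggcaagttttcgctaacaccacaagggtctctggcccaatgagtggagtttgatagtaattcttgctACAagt
SNORA69: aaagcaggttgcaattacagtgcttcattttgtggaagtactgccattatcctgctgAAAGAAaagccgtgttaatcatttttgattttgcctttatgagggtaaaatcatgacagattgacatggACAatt
SNORA13: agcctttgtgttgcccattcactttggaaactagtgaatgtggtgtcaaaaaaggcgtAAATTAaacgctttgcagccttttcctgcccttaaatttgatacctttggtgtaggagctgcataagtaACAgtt
SNORA8 lies at chr11:93732361-93732499 on the minus strand. SNORA62 lies at chr3:39411054-39411206 (plus), SNORA69 at chrX:119787353-119787484 (minus) and SNORA13 at chr5:112161485-112161617 (plus).

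The letters of the boxes followed the classes given by the symbols. Of 139 genes, 118 (84.9%) had a GENCODE 29 transcript, and the other 21 were placed by RefSeq (GRCh38.p14) without strand or sequence. Of 63 SNORD genes with a sequence, 43 (68.3%) held the C box, 59 (93.7%) held the D box and 42 (66.7%) held both. None of the 48 SNORA genes with a sequence held both. The H box was found in 46 SNORA genes (95.8%), the ACA in 32 (66.7%) and both in 30 (62.5%), against none of the SNORD genes with both. Of 7 SCARNA genes with a sequence, 2 held the C and D boxes and 3 held the H and ACA boxes. Among 35116 RefSeq promoter windows the C and D boxes stood together in 0.0313% at a length of 80 bases, and the H and ACA boxes in 0.527% at a length of 134 bases. On the opposite strand, no SNORD gene held both C and D and no SNORA gene held both H and ACA. Where letters were not found, the window simply lacks them as annotated: SNORA71A, SNORA71B and SNORA71C, for example, end in aca with no bases after it. The median annotated length was 80 bases in SNORD genes (55 to 237), 134 in SNORA genes (121 to 249) and 138 in SCARNA genes.

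The siHNRNPM library held 13056118 reads over 18851 features and the siNC library 19931360 reads over 19882, so 1 read was worth 0.0764 and 0.0503 CPM, the scaled read count relative to the library total. HNRNPM itself had 1042 reads in the siHNRNPM library (79.6 CPM) and 2870 in the siNC library (144 CPM). Its log2 ratio of siHNRNPM over siNC was −0.86 (95% counting interval −0.96 to −0.76), in the direction of the label. Of 8 epithelial markers, KRT8, KRT18, EPCAM and CDX2 had 106 to 632 reads in each library. KRT19, VIL1 and KRT20 had at most 1, and CDH1 had 1 read in the siHNRNPM library and 10 in the siNC library. PTPRC and PECAM1, markers of leukocytes and endothelium, had at most 2 reads, and COL1A1, a fibroblast marker, had 21 in the siHNRNPM library and 13 in the siNC library.

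Reads on these genes were few. The 139 genes held 4373 reads in the siHNRNPM library (334 CPM) and 6559 in the siNC library (330 CPM), which is 0.0335% and 0.0329% of each library. The log2 ratio of the sums was 0.02 (−0.04 to 0.07). The median gene had 27 reads over both libraries, against 805 for all features with 10 or more. At the minimum stood SCARNA12 with 2 reads in the siHNRNPM library and 8 in the siNC library, SNORA44 with 3 and 7, and SNORD88B with 8 and 2. One read below it stood SNORA59A (1 and 8), SNORD100, SNORD47 and SNORD72 (4 and 5 each), SNORD70 (0 and 9) and SNORD93 (1 and 8). A further 95 symbols with 1 to 9 reads, these 6 included, held 127 reads in the siHNRNPM library and 233 in the siNC library, and 229 symbols had none in either. The log2 ratio of the sums of those 95 was −0.27 (−0.60 to 0.05).

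A few genes carried most of the reads. The most read, SNORA104, took 32.4% of the genes' reads in the siHNRNPM library and 30.2% in the siNC library, the top 5 took 47.2% and 48.5%, and the top 15 took 62.8% and 64.6%. Per kilobase of annotated length, the siNC level was 716 CPM for SNORA104. SNORA40 (181 CPM per kb), SNORD5 (145), SNORA8 (113), SNORD25 (101) and SNORD80 (99.9) followed. The class medians were lower: 10.1 CPM per kb for SNORD, 6.45 for SNORA and 1.83 for SCARNA genes. Before division by length, the median siNC reads were 17 in SNORD, 18 in SNORA and 8.5 in SCARNA genes. The higher SNORD value per kb therefore goes with the shorter SNORD length, a median of 80 bases against 134 in SNORA genes. All 8 SCARNA genes lay between 1.37 and 4.79 CPM per kb, and the largest value was that of SCARNA27.

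**Figure D1:**
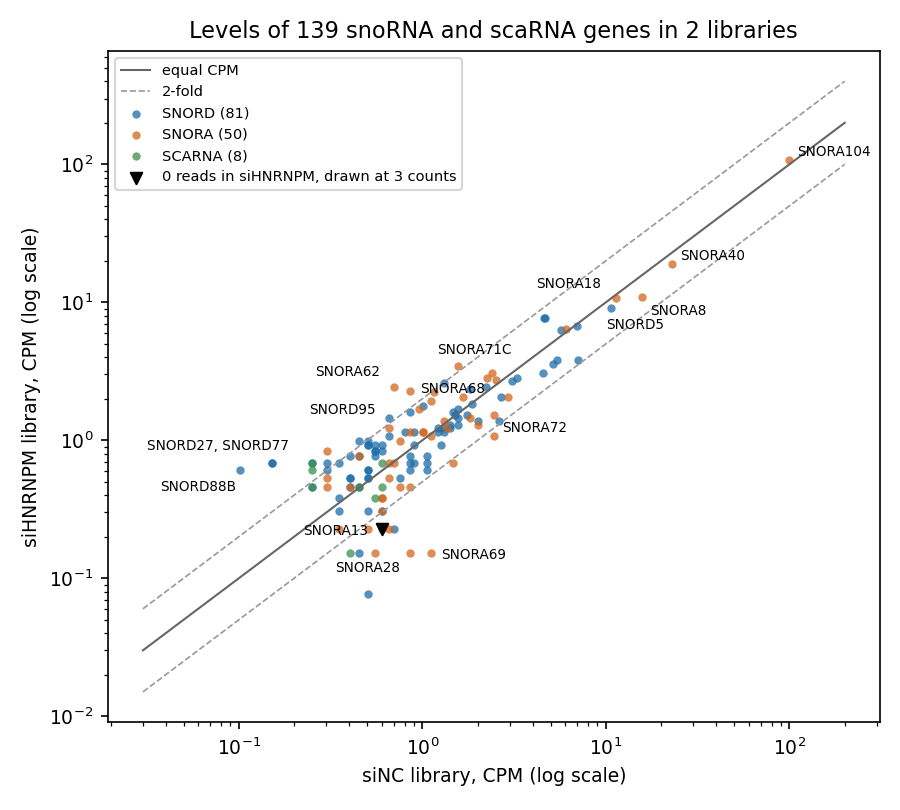
Level of each of the 139 snoRNA and scaRNA genes in the siNC library (x axis, CPM, log scale) and in the siHNRNPM library (y axis, CPM, log scale), coloured by class, with lines at equal level and at 2-fold. SNORA104 stands apart at 99.5 and 108 CPM, and SNORA13, with 0 reads in the siHNRNPM library, is drawn at the level of 3 counts, 0.229 CPM.

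SNORA104 is described separately, because its annotated position overlaps another annotated sequence. It had 1417 reads in the siHNRNPM library and 1978 in the siNC library, a log2 ratio of 0.12 (0.02 to 0.22). RefSeq places it at chr19:14622213-14622351 within ADGRE3, an adhesion receptor gene that had 0 reads in both libraries. For 30 bases it overlaps AC022149.1, a processed pseudogene of 609 bases whose whole length matched an ITGB1 transcript with no mismatch. ITGB1, the integrin beta subunit, had 51282 reads in the siHNRNPM library and 70057 in the siNC library, a log2 ratio of 0.15 (0.14 to 0.17). The log2 ratio of SNORA104 minus that of ITGB1 was −0.03 (−0.13 to 0.07), so the counting interval of the difference held 0. Whether the reads came from ITGB1 was not tested. Without SNORA104, the summed reads of the other genes were 2956 and 4581, with a log2 ratio of −0.03 (−0.10 to 0.04).

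As a group, these genes were spread around equality between the libraries. The log2 ratio was above 0 in 75 genes and below 0 in 64, with a median of 0.07 (quartiles −0.49 and 0.66). Over all features with 10 or more reads the median was −0.01 (quartiles −0.23 and 0.21). Those features had more reads. Among all features with 20 to 49 reads, nearer the depth of these genes, the quartiles were −0.48 and 0.60. A gene is called higher or lower here when its ratio was at least 2-fold and its counting interval excluded a ratio of 1. By that rule 7 of the 139 genes (5.04%) were higher in the siHNRNPM library, against 2.84% of all features, and 4 (2.88%) were lower, against 1.92%. In either direction this was 7.91%, against 4.76% of all features. The background rises where reads are few. Between 10 and 19 reads, 5 of 47 genes (10.6%) were called, against 14.0% of all features in that range. Between 20 and 49 reads it was 4 of 53 (7.55%), against 18.1%, and between 50 and 99 reads 2 of 24 (8.33%), against 14.8%. With 100 reads or more none of 15 was called, against 1.23%. With 15 genes in the last range and a background this low, 0 calls there shows nothing about the genes. The counts in all ranges are small, and no difference from the background was tested. In bulk RNA a change in the share of cells that make an RNA and a change in its amount per cell cannot be told apart.

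The classes differed little in their medians. The median log2 ratio was 0.09 in SNORD, −0.04 in SNORA and 0.10 in SCARNA genes, all within the quartiles of all features. The signs depend on the read minimum: with 30 or more reads the medians were −0.10 in SNORD and 0.12 in SNORA genes. Of 81 SNORD genes, 4 were called higher (4.94%, against 2.84% of all features) and none lower (against 1.92%). Of 50 SNORA genes, 3 were called higher (6%) and 4 lower (8%), 14% in either direction. None of the 8 SCARNA genes was called. Of all features with 10 to 19, 20 to 49 and 50 to 99 reads, 14.0%, 18.1% and 14.8% were called in either direction. The class counts are small, and no difference between classes or from the background was tested. SNORD genes held 1631 reads in the siHNRNPM library and 2435 in the siNC library, a log2 ratio of 0.03 (−0.07 to 0.12). SNORA genes without SNORA104 held 1274 and 2079, a log2 ratio of −0.10 (−0.20 to −0.00). With SNORA104 the sums were 2691 and 4057, a log2 ratio of 0.01 (−0.06 to 0.08). Both SNORA sums include SNORA40 (246 and 453 reads) and SNORA8 (144 and 312), which lie in the same host, TAF1D. Outside TAF1D and without SNORA104, the genes of all classes together had a summed log2 ratio of 0.05 (−0.03 to 0.13).

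**Figure D2:**
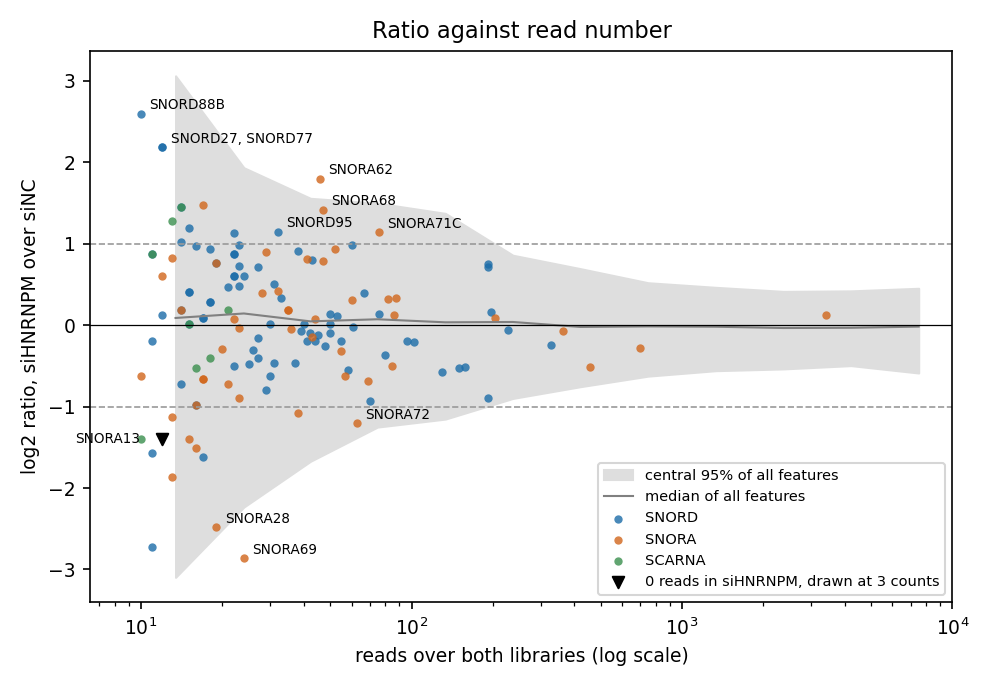
Log2 ratio of siHNRNPM over siNC (y axis) against the reads of each gene over both libraries (x axis, log scale), for SNORD, SNORA and SCARNA genes, with the median and central 95% of all features in grey and dashed lines at 2-fold. The called genes are named, and all of them had fewer than 100 reads. SNORA13 is drawn at its ratio against 3 counts, −1.40.

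Among the H/ACA genes called higher, SNORA62 had the largest ratio. It had 32 reads in the siHNRNPM library (2.45 CPM) and 14 in the siNC library (0.704 CPM), a log2 ratio of 1.80 (0.85 to 2.82). It lies in RPSA, a ribosomal protein and laminin receptor gene, over an exon of a retained-intron transcript. SNORA68 had 30 reads (2.29 CPM) and 17 (0.855 CPM), a log2 ratio of 1.42 (0.52 to 2.37). SNORA71C, in an intron of the non-coding host SNHG17 at chr20:38429670-38429803 on the minus strand, had 45 reads (3.44 CPM) and 31 (1.56 CPM). Its log2 ratio was 1.14 (0.45 to 1.85). All 3 had more reads in the siHNRNPM library although that library was the shallower one. SNORA71C was the only called-higher gene with neither a near-identical copy nor an annotated exon of another gene over it.

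The H/ACA genes called lower had few reads in the siHNRNPM library. SNORA69, which lies partly over an exon of the ribosomal protein gene RPL39, had 2 reads there (0.153 CPM) and 22 in the siNC library (1.11 CPM), a log2 ratio of −2.86 (−5.99 to −0.83). SNORA28, in an intron of the translation initiation factor gene EIF5, had 2 and 17 reads (0.153 and 0.855 CPM), a log2 ratio of −2.48 (−5.64 to −0.41). SNORA13 was not detected in the siHNRNPM library, where 0 reads allow a level of up to 0.229 CPM, and had 12 reads (0.604 CPM) in the siNC library. Set against 3 counts, it was at least 2.63-fold lower. SNORA13 lies in an intron of EPB41L4A-AS1, a non-coding RNA gene. SNORA72, in an intron of the ribosomal protein gene RPL30, had 14 reads (1.07 CPM) and 49 (2.46 CPM), a log2 ratio of −1.20 (−2.18 to −0.32). It has a copy that is 91.7% identical. SNORA28 and SNORA13 had neither a near-identical copy nor an exon over them.

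Among the C/D genes called higher, SNORD95 had the most reads. It had 19 reads in the siHNRNPM library (1.45 CPM) and 13 in the siNC library (0.654 CPM), a log2 ratio of 1.15 (0.06 to 2.29). Its host RACK1 encodes a scaffold protein of the small ribosomal subunit. SNORD27, in SNHG1, and SNORD77, in GAS5, each had 9 reads (0.688 CPM) and 3 (0.151 CPM), a log2 ratio of 2.19 (0.19 to 4.71). SNHG1 and GAS5 are non-coding RNA genes that host snoRNAs in their introns. SNORD88B, in C19orf48, had 8 reads (0.611 CPM) and 2 (0.101 CPM), a log2 ratio of 2.60 (0.28 to 5.88), and its copy SNORD88A is 91.2% identical. SNORD77 and SNORD88B were no longer called when the siNC library was thinned, by a single random draw, to the depth of the siHNRNPM library. SNORD27 stayed called in that draw although its reads equal those of SNORD77, so the draw decided between them. SNORD27, SNORD77 and SNORD88B each rest on 2 or 3 reads in the siNC library.

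Outside the 2-fold rule, the better-read genes had the narrower intervals. Over all 139 genes the interval excluded a ratio of 1 in 23 genes (16.5%), against 43.6% of all features. It lay above in 12 of them and below in 11, and 116 intervals held a ratio of 1. All features had far more reads, a median of 805 against 27, so these 2 shares are not alike in depth. Between 10 and 19 reads the share was 10.6%, against 14% of all features in that range. Between 20 and 49 reads it was 7.55% against 18.5%, and between 50 and 99 reads 20.8% against 27.7%. Of the 15 genes with 100 reads or more, 6 had an interval below 1 (40%) and 3 above (20%). Over all features of that depth these shares were 28.7% and 22.7%, and 51.4% in either direction, against 9 of the 15 genes. Their median log2 ratio was −0.21, against −0.02 for all features of that depth. SNORD31, in SNHG1, had 101 reads in the siHNRNPM library (7.72 CPM) and 91 in the siNC library (4.58 CPM), a log2 ratio of 0.75 (0.33 to 1.18). SNORD17, in an intron of the sorting nexin gene SNX5, had 100 (7.64 CPM) and 92 (4.63 CPM), a log2 ratio of 0.72 (0.30 to 1.15). SNORD45A, in RABGGTB, a gene for a subunit of the enzyme that prenylates Rab proteins, had 34 (2.6 CPM) and 26 (1.31 CPM), a log2 ratio of 0.99 (0.21 to 1.79).

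The well-read genes with an interval below 1 lay in several hosts. SNORD80, in GAS5, had 50 reads in the siHNRNPM library (3.82 CPM) and 141 in the siNC library (7.09 CPM), a log2 ratio of −0.89 (−1.39 to −0.42). SNORD143, in THAP9-AS1, had 50 and 108 reads, a log2 ratio of −0.51 (−1.02 to −0.01). SNORD10, in EIF4A1, had 47 and 103, a log2 ratio of −0.53 (−1.06 to −0.02). SNORD96A, in RACK1, had 40 and 90, a log2 ratio of −0.57 (−1.14 to −0.01). SNORD142, in PFKP, had 18 and 52, a log2 ratio of −0.93 (−1.79 to −0.13). The upper bound of the interval lay near 0 in SNORD143, SNORD10 and SNORD96A. SNORD25, the second most read SNORD gene, had 88 and 139 reads and a log2 ratio of −0.06 (−0.46 to 0.34). SNORD102, in RPL21, had 37 and 65, a log2 ratio of −0.21 (−0.83 to 0.39).

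SNORD62A and SNORD62B, both in PRRC2B, are identical in sequence. SNORD62A had 3 reads in the siHNRNPM library and 14 in the siNC library, and SNORD62B had 83 and 113. How reads were split between them is not known, and their sum, 86 and 127 reads, had a log2 ratio of 0.04 (−0.37 to 0.45). In all, 30 genes had a copy at 90% identity or more, SNORA40 (96.8%, to SNORA40B) and SNORA8 (93.5%) among them, and 84 lay over an annotated exon of another gene on either strand. Of the 118 genes with a GENCODE transcript, 36 had neither.

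The SCARNA genes had 10 to 21 reads over both libraries, and every interval held 1. SCARNA27 had 9 reads in the siHNRNPM library and 12 in the siNC library, a log2 ratio of 0.19 (−1.24 to 1.56). SCARNA9 had 6 and 12 (−0.40, −2.10 to 1.13), SCARNA22 had 5 and 11 (−0.53, −2.41 to 1.11) and SCARNA10 had 6 and 9 (0.02, −1.75 to 1.67). These 4 had a higher read count in the deeper siNC library. SCARNA8 had 9 and 5 (1.45, −0.28 to 3.38), SCARNA15 had 8 and 5 (1.28, −0.51 to 3.24), SCARNA17 had 6 and 5 (0.87, −1.11 to 2.92) and SCARNA12 had 2 and 8 (−1.40, −4.67 to 0.93). A 2-fold difference was not resolvable for them at this depth. Their summed reads were 51 and 67, with a log2 ratio of 0.21 (−0.35 to 0.76).

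Of 15 symbols for RNAs of ribosomal RNA precursor processing, 10 had a read, 7 met the minimum of 10 reads and 5 had none. U3 was represented by SNORD3A, with 4 reads in the siHNRNPM library and 7 in the siNC library, and SNORD3B-1, with 0 and 2. SNORD3B-2, SNORD3C and SNORD3D had none, and neither did SNORD118 (U8) or SNORD13 (U13). SNORD3A and SNORD3B-1 are 99.5% identical. U22 (SNORD22, in SNHG1) had 32 and 44 reads, a log2 ratio of 0.14 (−0.56 to 0.83). SNORD14C had 1 read in each library, and SNORD14D had 1 in the siHNRNPM library and 6 in the siNC library. The U14 genes SNORD14A, SNORD14B and SNORD14E had 10 and 21, 21 and 29, and 11 and 12 reads, with log2 ratios of −0.47, 0.14 and 0.48. The U17 genes SNORA73A and SNORA73B, which are 93.1% identical, had 16 and 27 and 18 and 26 reads, with log2 ratios of −0.15 and 0.07. The interval of each of these 7 genes held a log2 ratio of 0. U3 is among the most abundant snoRNAs of human cells, and here it had fewer reads than SNORD25.

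The imprinted C/D clusters had almost no reads. None of the 31 SNORD116 symbols and none of the 9 SNORD113 symbols had a read. The 49 SNORD115 symbols held 2 reads and the 31 SNORD114 symbols 1, all in the siHNRNPM library.

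Hosts were found by coordinates: 137 of the 139 genes lay within 82 host genes on GRCh38, and SNORA22 and SNORD3A had none. Relative to the transcripts of the host, 67 lay wholly within an annotated exon, 11 partly and 59 in an intron. Of the 78 that met an exon, 60 met one of a retained-intron transcript and 8 met one of a transcript typed protein-coding or long intergenic non-coding. Non-coding transcripts of other types, such as the antisense ones over SCARNA17, SNORD12 and SNORA44, are not counted in the 8. In the siNC library the median level of SNORD genes within an exon was 15.7 CPM per kb, against 7.68 for those in an intron. For SNORA genes the medians were 6.97 and 5.72. The distance from the gene to the next host exon had a median of 128 bases in 62 SNORD genes and 203 bases in 47 SNORA genes. The counts do not separate reads of the mature snoRNA from reads of a host transcript that keeps the intron, so these cannot be told apart. The 11 genes partly over an exon had a median log2 ratio of −0.48, and 10 of them lay below 0. These 11 were looked at after their values were seen, and their summed reads were 122 in the siHNRNPM library and 247 in the siNC library, a log2 ratio of −0.41 (−0.74 to −0.10).

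A snoRNA cut from an intron shares a primary transcript with its host, so each gene was set beside the host assigned to it. That assignment is less certain for genes placed by RefSeq without strand and for genes with several possible hosts. The comparison covered 131 genes in 78 hosts with 10 or more reads. The difference of the log2 ratios, member minus host, does not depend on the scaling of the libraries. Its median was −0.01 (quartiles −0.52 and 0.61), and its interval lay above 0 in 9 genes, below 0 in 10 and held 0 in 112. In SNORD genes the median difference was 0.10 and in SNORA genes −0.24. Across the 61 genes with 30 or more reads, the ratios of gene and host had a Pearson correlation of 0.28 and a Spearman correlation of 0.29, as a description across genes of the same 2 libraries that share hosts. Over all 131 genes these were 0.07 and 0.04. Level per length also differed: the median ratio of snoRNA to host in CPM per kb in the siNC library was 0.142, and it exceeded 1 in 25 genes. Host length was the union of all annotated exons, those of retained-intron transcripts included, which lowers the host level per kb. The largest ratios, 19.4 for SNORD58C and 13 for SNORD58A, lay in RPL17, a ribosomal protein gene listed at only 105 siNC reads.

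**Figure D3:**
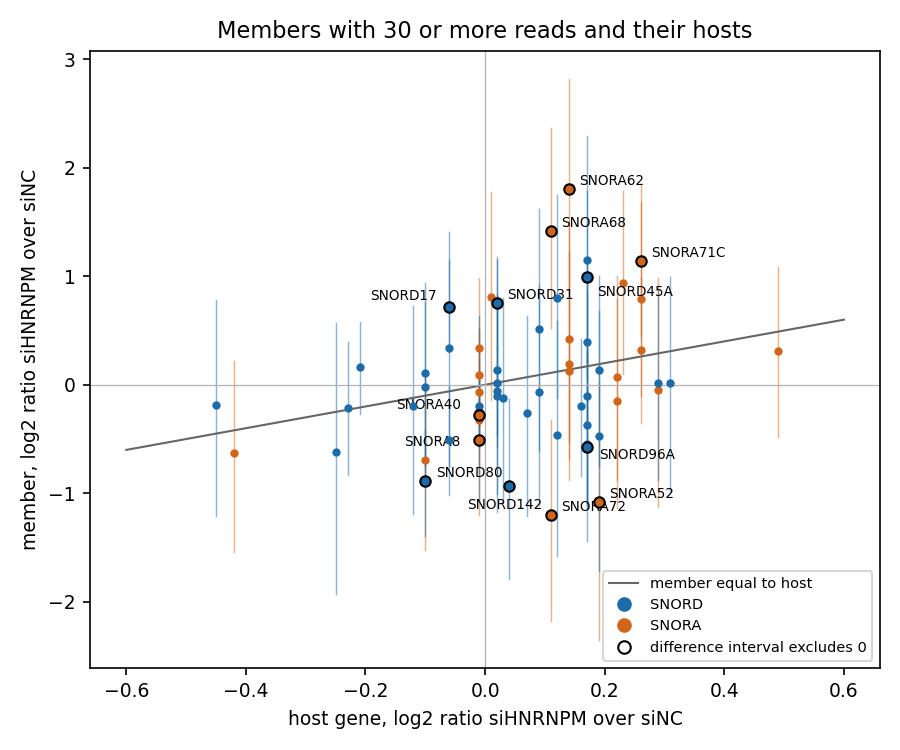
Log2 ratio of siHNRNPM over siNC of each host gene (x axis) against that of its snoRNA (y axis), for the 61 genes with 30 or more reads, with 95% counting intervals of the snoRNA as vertical lines and a line where the ratios are equal. Genes whose difference from the host has an interval without 0 are ringed and named, 6 above and 7 below.

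The genes farthest from their hosts included most of those called above. This overlap follows largely from the 2-fold rule, because every host compared lay within 2-fold of equality, and it is no separate result. SNORA62 exceeded RPSA (21792 reads in the siHNRNPM library and 29967 in the siNC library) by 1.65 (0.70 to 2.67) on the log2 scale. SNORD17 exceeded SNX5 (2022 and 3212 reads), the smaller of its 2 possible hosts, by 0.79 (0.36 to 1.22). SNORD31, placed without strand, exceeded SNHG1 by 0.73 (0.29 to 1.17). SNORA69 minus RPL39 (136 and 244 reads) was −2.62 (−5.77 to −0.55), and SNORA28 minus EIF5 was −2.68 (−5.84 to −0.61). SNORD80 minus GAS5 was −0.79 (−1.29 to −0.31), and SNORD96A minus RACK1 was −0.74 (−1.31 to −0.18). The log2 ratios of all hosts compared lay between −0.45 and 0.49. The 23 ribosomal protein hosts had a median of 0.14, and the 35 snoRNA genes within them 0.02. The 12 non-coding snoRNA hosts also had a median of 0.14, and the 29 genes within them 0.28.

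TAF1D, a gene for a subunit of the RNA polymerase I selectivity factor, hosts 8 of the genes and 21.9% of their siNC reads. Summed, they had 811 reads in the siHNRNPM library and 1439 in the siNC library, a log2 ratio of −0.22 (−0.35 to −0.10). TAF1D had 1797 and 2751 reads, a log2 ratio of −0.01 (−0.10 to 0.08), and the difference was −0.21 (−0.37 to −0.06). In proportion to the host, the 8 genes had 45.1% as many reads as TAF1D in the siHNRNPM library and 52.3% in the siNC library. SNORA8 had 144 and 312 reads (−0.51, −0.81 to −0.22) and SNORA40 had 246 and 453 (−0.28, −0.51 to −0.05). SNORA18 had 140 and 224 (−0.07, −0.39 to 0.24). SNORD5 had 118 and 211 (−0.24, −0.57 to 0.10), SNORA32 had 84 and 120 (0.09, −0.33 to 0.50) and SNORA25 had 40 and 48 (0.34, −0.30 to 0.98). SNORA1 had 19 and 36 (−0.32, −1.20 to 0.52) and SNORD6 had 20 and 35 (−0.20, −1.07 to 0.63). SNORA32 minus SNORA8 was 0.60 (0.08 to 1.11), SNORA25 minus SNORA8 was 0.85 (0.14 to 1.56) and SNORA18 minus SNORA8 was 0.44 (0.00 to 0.87). These 3 of 28 pairs excluded 0, each with SNORA8, and the other 25 held it. SNORA40 stood at 11 times the level of TAF1D per length in the siNC library, SNORD5 at 8.85 times and SNORA8 at 6.87 times. These multiples depend on the TAF1D length used, 8420 bases for the union of all its annotated exons, and a shorter length would lower them. They depend likewise on the short annotated lengths of the snoRNA genes.

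SNHG17 hosts SNORA71A, SNORA71B and SNORA71C, a family of related H/ACA genes. Together they had 107 reads in the siHNRNPM library and 98 in the siNC library, a log2 ratio of 0.73 (0.32 to 1.14). SNORA71A had 25 and 22 reads (0.79, −0.10 to 1.68), SNORA71B had 37 and 45 (0.32, −0.35 to 0.98) and SNORA71C had 45 and 31. SNHG17 had 812 and 1031 reads, a log2 ratio of 0.26 (0.12 to 0.39). The difference between the family and its host was 0.47 (0.04 to 0.90). All 3 ratios lay above 0, and the interval excluded 1 in SNORA71C alone.

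GAS5 and SNHG1 each held a few pairs of genes whose difference had an interval without 0. In GAS5 these were 4 of 21 pairs, each with SNORD80, and the other 17 held 0. In SNHG1 they were 4 of 15 pairs, most of them with SNORD27, and the other 11 held 0. The 7 genes in GAS5 had 133 reads in the siHNRNPM library and 233 in the siNC library, a log2 ratio of −0.21 (−0.52 to 0.11), beside −0.10 (−0.18 to −0.02) for GAS5. SNORD80 had the most reads of them in each library, and 5 of the other 6 genes had a ratio above 0, SNORD76 (13 and 9 reads) and SNORD77 among them. SNORD76 minus SNORD80 was 2.03 (0.58 to 3.51). The 6 genes in SNHG1 had 256 and 323 reads, a log2 ratio of 0.27 (0.03 to 0.51), beside 0.02 (−0.09 to 0.13) for SNHG1, a difference of 0.25 (−0.02 to 0.51). SNORD25 minus SNORD31 was −0.81 (−1.40 to −0.22). In RACK1, SNORD95 minus SNORD96A was 1.72 (0.46 to 2.99), and in RABGGTB, SNORD45A minus SNORD45C was 1.54 (0.36 to 2.73). Over all hosts with more than 1 gene there were 115 pairs in 29 hosts, and the interval of the difference excluded 0 in 13 pairs (11.3%), with no adjustment for their number.

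**Figure D4:**
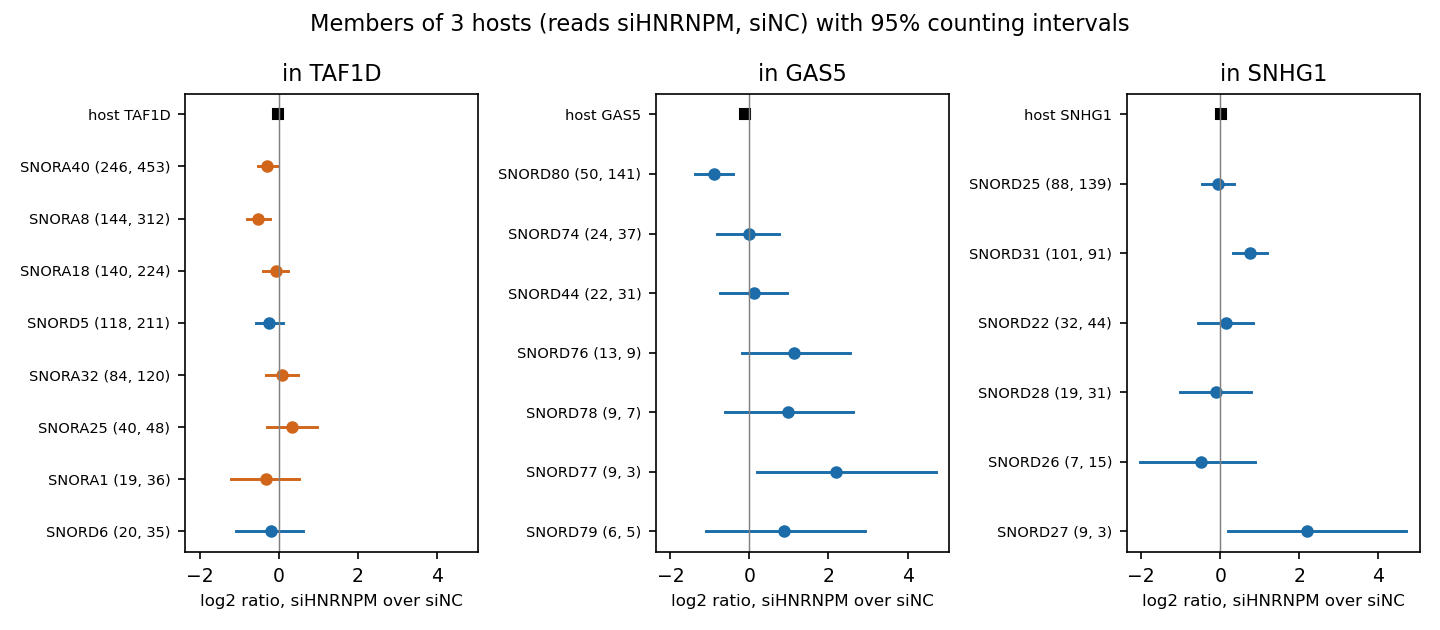
Log2 ratio of siHNRNPM over siNC (x axis) of each snoRNA gene in TAF1D, GAS5 and SNHG1 (circles, SNORD in blue and SNORA in orange) and of the host gene (black squares), with 95% counting intervals as lines and the reads in the siHNRNPM and siNC libraries in brackets. SNORD80 stands at −0.89 while SNORD77 in the same host stands at 2.19, and the intervals widen as reads fall.

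Other hosts with 3 or more genes included EIF4A1, GNL3, EIF4A2, RPL3, RABGGTB and SNHG12. For these, EIF4A1 apart, the interval of the summed difference from the host held 0, and the summed log2 ratios ran from −0.01 in RPL3 to 0.35 in GNL3. In EIF4A1, SNORA48 (27 reads in the siHNRNPM library and 58 in the siNC library), SNORA67 (15 and 20) and SNORD10 summed to 89 and 181, a log2 ratio of −0.42 (−0.80 to −0.05). The table lists EIF4A1, a translation initiation helicase gene, at 0 reads in both libraries, so no comparison with this host was made.

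Genes for the proteins that build and mature these particles lay mostly near equality between the libraries. Of 43 genes listed for core proteins, assembly factors, RNA processing and Cajal bodies, 40 had 10 or more reads. Of these, 38 had 100 reads or more. The interval lay above a ratio of 1 in 11 genes and below it in 8, so 47.5% excluded 1, near the 51.4% of all features with 100 reads or more. It held 1 in 21, and the median log2 ratio was 0.04. One gene, PARN, passed 2-fold (2.5%, against 4.76% of all features and 1.23% of those with 100 reads or more). Of the C/D core genes, FBL, the methyltransferase, had 19 and 31 reads (−0.10, −1.01 to 0.77), NOP56 had a log2 ratio of 0.03 (−0.06 to 0.13) and NOP58 of 0.01 (−0.11 to 0.12). SNU13, which binds the box-containing kink turn, had 0.22 (0.12 to 0.31). Of the H/ACA core genes, DKC1, the pseudouridine synthase, had a log2 ratio of 0.04 (−0.07 to 0.15) and NOP10 of 0.13 (0.04 to 0.23). NHP2 had 0.12 (−0.00 to 0.24) and GAR1 0.08 (−0.07 to 0.23).

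Past 1.5-fold with an interval that excluded 1 were PARN and NOLC1. PARN, a poly(A) ribonuclease that trims the 3′ ends of H/ACA RNAs, had 98 reads in the siHNRNPM library (7.49 CPM) and 28 in the siNC library (1.41 CPM), a log2 ratio of 2.41 (1.79 to 3.07). NOLC1, the nucleolar and Cajal-body phosphoprotein Nopp140, had 1319 reads (101 CPM) and 1173 (59 CPM), a log2 ratio of 0.77 (0.66 to 0.89). PARN, FBL and ZNHIT3 (14 and 16 reads) also have annotated transcripts on alternate or patch sequences of the assembly. By symbol, none of the 139 genes and none of the 82 hosts was found among such transcripts. That search could miss the 21 genes without a GENCODE 29 transcript and hosts listed under another symbol, such as GLTSCR2, which GENCODE 29 names NOP53. What the alternate sequences do to the low counts of PARN, FBL and ZNHIT3 was not tested.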

How the data were processed

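The 2 libraries of total RNA from RKO cells, 1 transfected with siNC and 1 with siHNRNPM, were grouped by their treatment labels. The authors deposited unnormalized counts, 1 whole number for each symbol and library. HISAT2 2.0.4 and GRCh38 are named in the submitters' processing notes, without a role. The counter, annotation, use of strand, treatment of multi-mapped reads and RNA selection are not given in the sources used here. How reads of copies, of overlapping genes and of antisense partners were assigned is therefore not known.

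Counts were scaled with TMM (edgeR 4.0.16, R 4.3.3; factors 1.0024 and 0.9976) and given as CPM. With 1 library per group no model was fitted. Ratios carry an exact Clopper-Pearson 95% interval of the read split, and differences between genes an exact conditional interval of the odds ratio (scipy 1.17.1). A gene with 0 reads was set to 0.5 for a ratio's direction. Its fold is set against 3 counts and takes the reads of the other library as exact. The procedure was also run on simulated counts. The outcome of that run is not reported here, so nothing is concluded from it about the called genes, which had few reads. Hosts were the smallest GENCODE 29 gene on the same strand around each gene (either strand for genes placed by RefSeq). Copies were sought with edlib 1.3.9 among GENCODE small RNAs, and 90% identity or more was called near-identical. For 6 genes several hosts were possible.

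Named are all genes past 2-fold, the 15 most read, in each class the 5 most read and up to 6 with the largest ratios whose interval excludes 1, genes at the minimum, the precursor-processing and imprinted groups, hosts of 3 or more genes with their members, core snoRNP genes and those past 1.5-fold, and HNRNPM. Other genes were named where a comparison needed them, after their values were seen, and some named hosts and sequences are not reported here. The genes and lists were chosen with earlier results of these data known. Alternatives were total-count, DESeq2 1.42.0 and upper-quartile scaling, thinning the siNC library, other read minimums and fold limits, leaving out copies and exonic genes, and intronic hosts only.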

Additional observations from a re-analysis of the deposited data

How the results depend on the processing

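No paired analysis was possible because there was 1 library per group. Total-count and DESeq2 scaling changed none of the calls, and upper-quartile scaling added SNORD45A (log2 ratio 1.02). Thinning the siNC library, by a single random draw, changed 4 calls: SNORA46 and SNORD142 (-1.11) were gained and SNORD77 (2.17) and SNORD88B were lost. With a minimum of 30 reads, 4 genes were called higher and 1 lower, and the medians turned from 0.07 to -0.03 over all genes, from 0.09 to -0.10 in SNORD and from -0.04 to 0.12 in SNORA genes. With 1 or more reads the median over all genes was -0.03. Among the 36 genes with neither a near-identical copy nor an exon over them, 1 was called higher and 2 lower, and the SNORA median turned from -0.04 to 0.28. A limit of 1.5-fold gave 11 higher and 6 lower, and 2-fold with no condition on the interval gave 14 higher and 13 lower. The share of all features called was not computed for these alternative read minimums and fold limits. Fewer genes enter the 30-read setting and the one without copies or exons, and the cause of the turns of the medians was not tested. Leaving out the TAF1D genes and SNORA104, chosen after seeing the data, could not change the 7 higher and 4 lower calls, because none of these genes was called. The median over the genes that remained was 0.08. The depth limits the result: the median gene had 27 reads, and intervals cover counting error only.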
